A study of Mus musculus with 30 samples.

Results

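The response of mouse embryonic stem cells to loss of WAPL was separated from the response of the same kind of cell to auxin, the plant hormone used to remove the protein. The quantity examined was the interaction of treatment and line, that is, the change on auxin in cells with a WAPL degron minus the change on auxin in control cells without one. It rests on 12 of the 30 libraries of the series, 3 in each of 4 groups. Of the 19868 genes tested, 4122 passed the test of that difference (20.7% called at an adjusted p under 0.05).

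All 4 groups were E14 cells, a male (XY) line of 129P2/Ola background grown in serum with leukemia inhibitory factor, the MEK inhibitor PD0325901 and the GSK3 inhibitor CHIR-99021. The WAPL line had the genotype WAPL-AID with Tir1, and the control line, called TIR1 below, carried Tir1 alone. Each line was sampled untreated and after 24 h in 500 µM auxin (indole-3-acetic acid). The labels name a single cell line for each genotype, so differences between the lines cannot be told apart from differences between 2 clones. The lines also share what the controls carry: Tir1 and, after treatment, auxin. Polyadenylated RNA was sequenced from bulk cultures, so fewer cells of a type and less RNA per cell cannot be told apart. As further material, the WAPL-NIPBL line carries WAPL-AID, an FKBP degron on NIPBL, a HaloTag on RAD21 and Tir1, and was treated with auxin plus 500 nM dTAG-13. The PDS5AB line has AID on both PDS5A and PDS5B with Tir1 and received auxin. The PDS5AB-NIPBL line has those tags, the FKBP degron on NIPBL, the HaloTag on RAD21 and Tir1, and received auxin with dTAG-13. Treatment of these 3 lines also lasted 24 h, and each was likewise sampled untreated.

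WAPL releases the cohesin ring from chromatin. Cohesin extrudes DNA loops until it meets CTCF or is released, so without WAPL it stays on DNA longer and loops grow. In embryonic stem cells, WAPL is known for keeping a supply of cohesin that can be reloaded at the genes of the pluripotent state. AID stands for auxin-inducible degron, a peptide fused to a protein. When auxin is present, the plant F-box protein Tir1 binds the peptide and the protein is destroyed. Auxin is an indole, and indoles are known ligands of the aryl hydrocarbon receptor, a transcription factor that switches on genes for the metabolism of foreign compounds. A gene that moves on auxin in the WAPL line may therefore be answering either one.

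The 12 libraries held 23832495 to 45539021 counted fragments each, and replicates correlated at 0.988 or above (Pearson, across genes, on log2 CPM). CPM is a gene's count divided by the library's scaled total, on a fixed scale. Sums over several genes, here and below, are all in CPM of the unscaled total. Summed CPM of 5 embryonic stem cell markers (Pou5f1, Sox2, Nanog, Esrrb, Zfp42) was 3421 to 3715 in untreated libraries of both lines, 3222 to 3339 in auxin-treated TIR1 and 2475 to 2640 in auxin-treated WAPL libraries. Summed CPM of 7 fibroblast markers was 13.4 to 17.2 and 10.01 to 13.2 in TIR1 cells before and after auxin, and 12.9 to 13.8 and 4.62 to 5.38 in WAPL cells, with Dcn at 0 in 11 of 12 libraries and Postn in 8. A longer list of 9, with Pdgfrb and Fbn1 added, summed to 23.6 to 31.4 and 24.9 to 32.5 CPM of the unscaled total in TIR1 cells before and after auxin, and to 25.2 to 26.2 and 18.9 to 21.1 in WAPL cells, so the fall in TIR1 is absent and that in WAPL cells smaller with these genes. Library numbers in the labels ran from 5 to 21 in untreated TIR1 cells and from 43 to 45 in treated TIR1 cells, against 29 to 42 in the WAPL line. The auxin effect in the TIR1 line and the library number cannot be told apart. Summed counts of 37 mitochondrially encoded genes, in CPM of the unscaled library total, were 30577 to 35519 in treated and 25301 to 29195 in untreated WAPL libraries, against 27165 to 29503 and 26479 to 30450 in TIR1. Those of 70 replication-dependent histone genes were 61.9 to 70.2 in treated and 36.4 to 43.3 in untreated WAPL libraries, against 39.9 to 44.2 and 44.4 to 65.5 in TIR1. Their part in the results was not tested. Over all 30 libraries, 180 genes (0.906%) had no overlap between libraries numbered up to 21 and those numbered from 25. Untreated TIR1 replicate 1 stood apart from the other 11 libraries in CT010467.1, a ribosomal RNA gene, with 6442 CPM against 559 to 1588 CPM, and values that rest on it are given without it too.

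The Wapl transcript (ENSMUSG00000041408, chr14:34673928-34747983 in GRCm38, plus strand) was examined first. It stood at 163, 187 and 178 CPM in untreated and at 150, 196 and 167 CPM in treated WAPL cells. TIR1 libraries were at 285, 282 and 306 CPM untreated and at 364, 369 and 363 CPM on auxin. Wapl mRNA was therefore lower in the degron line from the start, its libraries overlapped before and after auxin, and the interaction of -0.37 (SE 0.11, edgeR adjusted p = 0.014) came with a rise in the TIR1 line of 0.33 on the log2 scale. A degron acts on protein, so these values say nothing of WAPL protein.

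On auxin, 6517 genes (32.8% called) changed in the WAPL line, 3385 higher (17%) and 3132 lower (15.8%), and 3962 (19.9%) changed in the TIR1 line, 2057 higher (10.4%) and 1905 lower (9.59%). The interaction had 1958 genes higher (9.86%) and 2164 lower (10.9%) in the WAPL line than the TIR1 line would give. Of the 6517 WAPL line genes, 2979 (45.7%) also passed in the interaction. Replicate numbers paired the WAPL libraries and not the TIR1 libraries, and a fit with a block for replicate number within each degron line called 6652 genes in the interaction, 3034 higher and 3618 lower. A block for replicate number in every line called 5045 genes, 2285 higher and 2760 lower. Keeping every gene with a count tested 40589 genes, of which 1831 were higher and 2136 lower. Gene list counts given for these settings stand beside these totals, and not beside the shares of the main fit. A test against a 2-fold minimum left 255, of which 148 were higher and 107 lower.

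Genes were sorted by the direction of their calls. The group called specific to the WAPL line holds 2286 genes: the interaction and the WAPL line effect passed with the same sign and the TIR1 effect did not pass. Of these, 1179 were higher and 1107 lower. They make up 35.1% of the genes changed in the WAPL line and 55.5% of the genes of the interaction. In 1544 of them (67.5%) the TIR1 estimate lay on the other side of 0 from the interaction, and in 47 (2.06%) by at least 1 on the log2 scale, so that at least 1 log2 unit of their interaction lies in the control line.

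Another 154 genes moved the same way in both lines and further in the WAPL line (71 higher and 83 lower). This group held 83 to 95 genes on leaving out any single TIR1 library. A further 508 genes moved in opposite directions (201 higher and 307 lower in the WAPL line). In 31 genes the WAPL line moved the same way as TIR1 but less. Another 874 genes of the interaction changed in the TIR1 line with no call in the WAPL line, and in 269 neither effect passed alone. Genes shared with auxin, changed the same way in both lines with no call in the interaction, numbered 1092, of which 556 were higher and 536 lower. In 966 of these (88.5%) the 95% interval of the interaction lay within 1 on the log2 scale. The remaining 2446 genes of the WAPL line effect and 1303 of the TIR1 effect passed in 1 line with no call in the interaction or the other line, and could not be assigned. With the replicate block within each degron line the larger, opposite, smaller, TIR1-alone and shared groups held 489, 1162, 164, 1589 and 1911 genes.

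**Figure D1:**
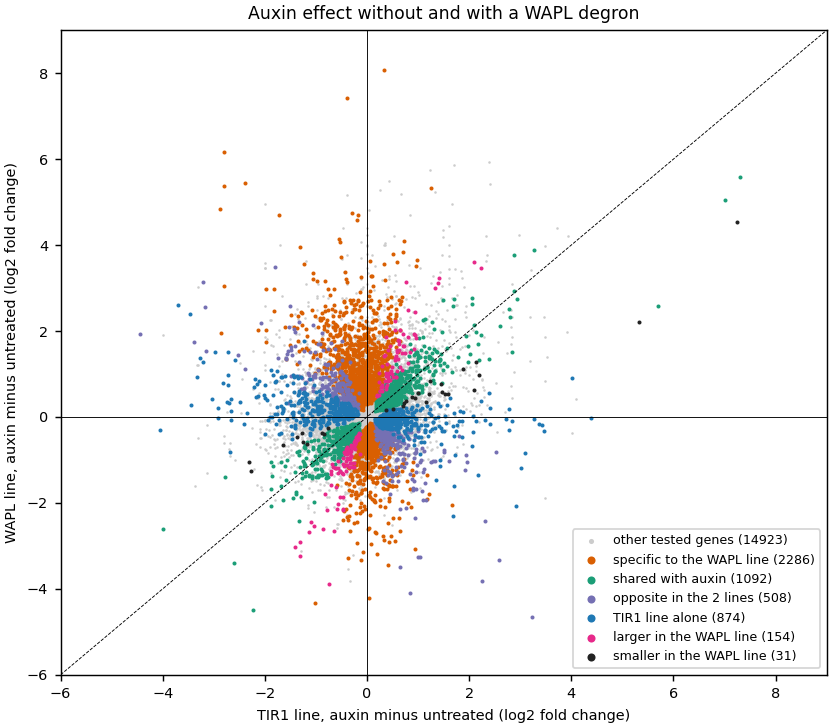
Log2 fold change on auxin in the TIR1 line (horizontal) against that in the WAPL line (vertical). Each point is 1 of 19868 tested genes, coloured by the group it was sorted into, and the dashed line marks equal change. The 2286 genes specific to the WAPL line lie along the vertical axis, the 1092 shared genes along the dashed line, and the 874 TIR1-alone genes along the horizontal axis.

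Among genes specific to the WAPL line, the 10 with the largest rise beyond auxin started from a few CPM. Lamb3 (ENSMUSG00000026639, chr1:193207699-193343878, plus strand), a laminin chain of epithelial basement membranes, stood at 1.36, 1.69 and 1.30 CPM in untreated and at 12.3, 8.51 and 10.6 CPM in treated WAPL cells. TIR1 cells had 1.58, 2.11 and 1.35 CPM untreated and 1.55, 0.95 and 0.58 CPM on auxin. The 3 treated WAPL libraries lay above all others, and the interaction was 3.56 (SE 0.40, edgeR adjusted p = 1.0e-07). Chst15 (chr7:132235780-132317228, minus strand), a sulfotransferase of chondroitin sulfate, rose from 2.38, 2.89 and 2.95 CPM to 26.99, 28.7 and 23.4 CPM. In TIR1 cells it was at 2.61, 2.38 and 1.56 CPM and, on auxin, at 2.77, 2.22 and 2.01 CPM, which gave an interaction of 3.18 (SE 0.26, edgeR adjusted p = 3.0e-10). The TIR1 groups overlapped, and the WAPL groups were far apart. Specific genes were named only where the WAPL groups did not overlap and the TIR1 effect was not called. Chst15 overlaps a gene on the opposite strand, and the counting took no account of strand.

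Dab2 (chr15:6299788-6440712, plus strand), an endocytic adaptor that marks primitive endoderm, rose from 8.77, 5.57 and 6.81 CPM to 44.0, 29.8 and 32.5 CPM in the WAPL line. The TIR1 values were 3.38, 4.45 and 4.08 CPM before and 2.95, 3.84 and 4.10 CPM after auxin (interaction 2.44, SE 0.27, edgeR adjusted p = 7.0e-08). Here too the TIR1 groups overlapped. H19 (chr7:142575529-142578143, minus strand), an imprinted noncoding RNA of fetal growth control, went from 1.85, 2.96 and 2.24 CPM to 6.94, 8.51 and 7.32 CPM in the WAPL line, with an interaction of 2.56 (SE 0.41, edgeR adjusted p = 3.0e-05). That rise is smaller than the interaction, part of which lies in a lower TIR1 estimate that was not called. The H19 gene is short. H19 overlaps 3 annotated small genes, so part of its signal could belong to them. The zinc finger gene Zfp467, the GDNF family receptor Gfra2, the endocytic adaptor Epn3, the ubiquitin ligase gene Trim67 and the POU factor Pou2f2 were also among the 10, with interactions of 3.19, 2.93, 2.79, 2.58 and 2.42.

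The 10 steepest falls specific to the WAPL line included receptors, secreted proteins and transcription factors. Tmem132d (chr5:127781630-128433077, minus strand), which codes for a membrane protein of neural cells, stood at 1.48, 2.26 and 1.26 CPM in untreated and at 0.077, 0.029 and 0.151 CPM in treated WAPL cells. TIR1 cells had 2.61, 3.08 and 3.51 CPM untreated and 2.77, 3.48 and 3.17 CPM on auxin. The interaction was -4.25 (SE 0.52, edgeR adjusted p = 5.5e-07), with few counts left behind the treated WAPL values. Msc (chr1:14753346-14755992, minus strand), the transcription factor musculin, fell from 5.65, 5.04 and 3.98 CPM to 0.73, 0.79 and 0.73 CPM in the WAPL line. In TIR1 cells it stood at 6.65, 9.64 and 7.41 CPM and, on auxin, at 7.87, 7.89 and 10.8 CPM (interaction -2.87, SE 0.29, edgeR adjusted p = 1.5e-08). The chemokine Cxcl14 (chr13:56288643-56296551, minus strand) fell from 4.14, 4.41 and 4.45 CPM to 0.73, 0.73 and 0.67 CPM. Its 6 TIR1 libraries spanned 3.96 to 4.52 CPM with the 2 groups interleaved, and the interaction was -2.63 (SE 0.21, edgeR adjusted p = 2.1e-10). Fst (follistatin, chr13:114452290-114458951, minus strand), a secreted inhibitor of activin, fell from 13.7, 14.6 and 14.4 CPM to 3.11, 4.25 and 3.60 CPM, with an interaction of -2.38 (SE 0.23, edgeR adjusted p = 6.8e-09). The sialyltransferase gene St8sia5, the forebrain and pituitary homeobox gene Hesx1, the somatostatin receptor Sstr2, the IGF-binding protein Igfbp4 and Cdc42ep1, an effector of the GTPase CDC42, had interactions of -3.21, -2.46, -2.35, -2.33 and -2.25. Cdc42ep1 overlaps Lgals2 on the opposite strand. Oas1f, at -2.32, belongs to a family of near-identical interferon-response genes and is uncertain.

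Genes of the naive pluripotent state were lower in the WAPL line beyond the auxin effect. Naive pluripotency is the ground state of the early epiblast, held by factors such as KLF4, PRDM14, ESRRB and TBX3. Of 15 naive factors tested, 11 were lower in the interaction (beside 10.9% of all tested genes), none was higher, and the median was -0.41 against 0.02 over all tested genes. In the WAPL line 12 fell and none rose (beside 15.8% and 17% of all tested genes), while in the TIR1 line 4 rose and 4 fell (beside 10.4% and 9.59%). Nanog, Nr0b1, Fgf4 and Tdh were not called in the interaction. Fgf4 (-0.28, edgeR adjusted p = 0.068) passed with the 4 groups alone (0.0353), without the PDS5AB line (0.0285) and with the replicate block in every line (0.0335) or within each degron line (0.000494). Tdh (-0.19, edgeR adjusted p = 0.276) passed with the replicate block within each degron line (0.0444) and without treated WAPL replicate 1 (-0.30, 0.0443). The list was chosen with results of these samples in view, so its direction is not independent evidence.

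Prdm14 (chr1:13113457-13127163, minus strand), a repressor of FGF signalling and DNA methylation in naive cells, stood at 54.9, 51.9 and 51.4 CPM in untreated and 22.04, 21.4 and 22.2 CPM in treated WAPL cells. The TIR1 libraries were at 50.4, 54.1 and 50.5 CPM and, on auxin, at 52.7, 54.9 and 55.1 CPM (interaction -1.34, SE 0.11, edgeR adjusted p = 3.9e-10). The treated WAPL libraries lay below the other 9, which spanned 50.4 to 55.1 CPM. Klf4 (chr4:55527143-55532466, minus strand) fell from 337, 389 and 331 CPM to 153, 159 and 158 CPM in the WAPL line and rose from 310, 263 and 263 CPM to 388, 404 and 452 CPM in the TIR1 line. The groups of each line did not overlap, and the interaction was -1.74 (SE 0.14, edgeR adjusted p = 3.9e-10). Dppa3, a maternal-effect factor of naive cells, likewise fell in the WAPL line and rose in TIR1, with an interaction of -2.28 (SE 0.28, edgeR adjusted p = 5.8e-07). For Klf5 and Tbx3 the fall was specific to the WAPL line, with interactions of -0.74 and -0.72. Klf2 had an interaction of -0.41 (edgeR adjusted p = 0.038), which was lost on leaving out any of 9 single libraries, 2 or 3 from each group (edgeR adjusted p from 0.0513 to 0.104). Esrrb, Zfp42 (Rex1) and Tcl1 fell in both lines and by more in the WAPL line, with interactions of -0.37, -0.47 and -0.43. Tfcp2l1 and Nr5a2 rose in the TIR1 line with no call in the WAPL line, so their interactions of -0.35 and -0.32 came with a change in the control. The Tfcp2l1 call was lost with the 4 groups alone (-0.34, edgeR adjusted p = 0.0525).

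The core factors shared by naive and primed cells had 2 of 9 lower, none higher and a median interaction of -0.20, a count that differs little from the 10.9% of all tested genes called lower. With the replicate block within each degron line 4 were lower and 1 higher, beside 3618 lower and 3034 higher of all 19868 tested genes. Sox2 (chr3:34650405-34652461, plus strand), which pairs with OCT4 on DNA, fell from 461, 453 and 429 CPM to 211, 240 and 210 CPM in the WAPL line. TIR1 cells were at 441, 427 and 456 CPM untreated and at 458, 482 and 486 CPM on auxin, giving an interaction of -1.13 (SE 0.11, edgeR adjusted p = 8.2e-09). Pou5f1 (OCT4) and Nanog were lower on auxin in the WAPL line, with log2 changes of -0.39 and -0.30. The Pou5f1 interaction of -0.25 (95% interval -0.47 to -0.04) did not pass (edgeR adjusted p = 0.089), though it did with the replicate block within each degron line (0.00137) and without treated WAPL replicate 1 (-0.37, 0.00531). The Nanog interaction was -0.14 (95% interval -0.38 to 0.10, edgeR adjusted p = 0.45). Dppa4 had an interaction of -0.36 (edgeR adjusted p = 0.024), which did not pass without untreated WAPL replicate 1 (0.0544), treated WAPL replicate 2 (0.0668), or treated TIR1 replicate 2 (0.0536) or 3 (0.0607).

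**Figure D2:**
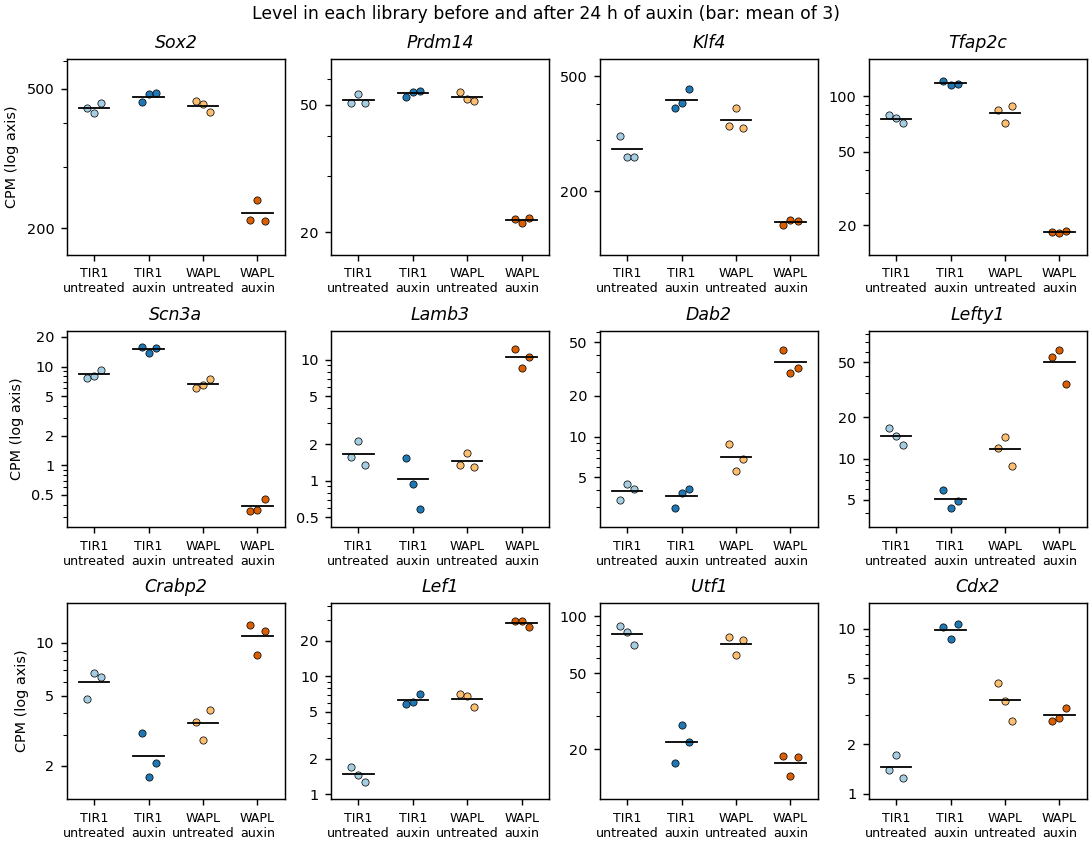
CPM on a log axis for 12 genes in the 12 libraries, grouped by line and treatment, with a bar at each mean of 3. Sox2 and Prdm14 fall in treated WAPL cells alone among the 4 groups, Klf4, Tfap2c and Scn3a fall there while rising in TIR1 cells, Lef1 and Utf1 move alike in both lines, and Cdx2 rises in TIR1 cells from 1.24 to 1.72 CPM up to 8.73 to 10.7 CPM.

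Among genes of the early embryo, Tfap2c fell and Lefty1 rose beyond auxin. Tfap2c (chr2:172549593-172558622, plus strand), a factor of trophoblast and of naive enhancers, was at 84.0, 72.0 and 89.0 CPM in untreated and 18.3, 18.2 and 18.7 CPM in treated WAPL cells. In TIR1 cells it went from 79.0, 76.2 and 72.0 CPM to 121, 116 and 117 CPM (interaction -2.79, SE 0.11, edgeR adjusted p = 1.3e-17). Treated WAPL libraries lay lowest and treated TIR1 libraries highest, without overlap. Gata2, another trophoblast and blood factor, also fell in the WAPL line and rose in TIR1 (interaction -2.55, SE 0.34, edgeR adjusted p = 1.7e-06), whereas the simple epithelial keratins Krt8 and Krt18 were higher, at 1.08 and 1.70. Over the list of trophoblast and keratin genes 3 of 11 were higher (5 with the replicate block within each degron line or no filter on low counts) and 4 lower, beside 9.86% higher and 10.9% lower of all tested genes. That block called 3034 of 19868 tested genes higher, and the fit with no filter 1831 of 40589.

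Lefty1 (chr1:180935022-180938400, plus strand), a secreted inhibitor of Nodal signalling, rose from 11.9, 14.5 and 8.82 CPM to 54.9, 61.7 and 34.9 CPM in the WAPL line and fell from 16.6, 14.5 and 12.5 CPM to 5.87, 4.36 and 4.94 CPM in TIR1 (interaction 3.63, SE 0.28, edgeR adjusted p = 6.8e-11). Lefty2 fell in the TIR1 line and was not called in the WAPL line (interaction 1.22, SE 0.31, edgeR adjusted p = 0.0049). Gsc (goosecoid), an organiser gene, moved the other way, with an interaction of -1.81 (SE 0.25, edgeR adjusted p = 4.4e-06). Nodal itself was not called (0.30, 95% interval 0.04 to 0.56, edgeR adjusted p = 0.097), but was called with the replicate block in every line (0.29, 0.0193) or within each degron line (0.30, 0.00205). Of 14 primitive streak and mesoderm genes 2 were higher and 2 lower, near the 9.86% and 10.9% of all tested genes. With the replicate block in every line or within each degron line 4 were higher, and on leaving out any of 9 single libraries, or in DESeq2, 1 was lower. The 2 blocks called 2285 and 3034 of all 19868 tested genes higher.

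Chains of laminin and collagen IV, the fabric of the basement membrane, were higher in 8 of 15 tested and lower in 1 (beside 9.86% and 10.9% of all tested genes), with a median interaction of 0.87 (0.83 with 1 chain near 0 counts set to a floor of 3 counts per library). In the WAPL line 9 rose and 2 fell (beside 17% and 15.8% of all tested genes), and in TIR1 1 rose and 2 fell (beside 10.4% and 9.59%). Besides Lamb3, Lamb1 rose from 42.3, 56.7 and 54.5 CPM to 115.9, 142.3 and 132.4 CPM in the WAPL line, and in TIR1 cells it stood at 29.4, 28.6 and 20.8 CPM and, on auxin, at 30.2, 24.9 and 25.1 CPM (interaction 1.32, SE 0.19, edgeR adjusted p = 5.6e-06). Lamb1, Lamb2 and Lama5 were specific to the WAPL line, the last 2 with interactions of 0.87 and 0.83. Col4a1 and Col4a2 rose in the WAPL line and fell in TIR1 (1.88 and 1.54). They lie head to head and overlap, so unstranded counts could be split between them. Lama1, the chain of the earliest embryonic basement membrane, was the lower member (-0.89). Summed endoderm markers (Gata4, Gata6 and Sox17) stood at 2.06 to 2.44 CPM in untreated and 3.47 to 4.42 CPM in treated WAPL cells, against 1.04 to 2.19 CPM and 1.70 to 2.37 CPM in TIR1, while summed fibroblast markers were lower in treated WAPL cells (4.62 to 5.38 against 12.9 to 13.8 CPM over 7 markers, and 18.9 to 21.1 against 25.2 to 26.2 CPM over 9). The part of other cells in the laminin values was not tested.

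Of 22 imprinted genes, which are expressed from 1 parental copy, 9 were higher and 2 lower (beside 9.86% and 10.9% of all tested genes), with a median interaction of 0.30. Cdkn1c, a growth-restricting inhibitor of the cell cycle, rose from 2.996, 2.40 and 2.24 CPM to 7.63, 9.74 and 8.10 CPM in the WAPL line and fell from 3.56, 3.43 and 2.48 CPM to 2.34, 1.67 and 1.80 CPM in TIR1 (interaction 2.44, SE 0.25, edgeR adjusted p = 2.3e-08). Dlk1, Nnat, Gnas, Mest and Snrpn were higher by 3.04, 1.38, 1.01, 0.77 and 0.75. Plagl1, at -0.64, was lower, and the count of lower genes was 1 on leaving out any of 7 single libraries and 4 with the replicate block within each degron line. That block called 3618 of all 19868 tested genes lower.

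Retinoic acid, a vitamin A derivative, drives stem cells out of pluripotency, and 5 of 14 genes of its pathway were higher with none lower (median 0.56), beside 9.86% and 10.9% of all tested genes. By their sorting 1 of the 5 was specific to the WAPL line, 1 opposite, 1 TIR1-alone and 2 called in the interaction alone. In the WAPL line 6 of the 14 rose and 1 fell (beside 17% and 15.8% of all tested genes). In TIR1 2 rose and 3 fell (beside 10.4% and 9.59%). Crabp2, the carrier that brings retinoic acid to its nuclear receptors, rose from 3.55, 2.79 and 4.13 CPM to 12.7, 8.48 and 11.6 CPM in the WAPL line and fell from 4.78, 6.74 and 6.42 CPM to 3.07, 1.72 and 2.06 CPM in TIR1 (interaction 3.05, SE 0.28, edgeR adjusted p = 3.7e-09). The retinol importer Stra6 was higher by 1.94. The receptors Rara (0.43) and Rarg (0.77) passed (edgeR adjusted p = 0.025 and 0.019), but did not without untreated TIR1 replicate 1 (0.32 and 0.70, edgeR adjusted p = 0.108 and 0.0526). Rara was also lost without untreated WAPL replicate 2, treated WAPL replicate 1, or treated TIR1 replicate 2 or 3, and Rarg without untreated WAPL replicate 2 or treated WAPL replicate 1, and 3 of 14 were called without untreated WAPL replicate 2, treated WAPL replicate 1 or untreated TIR1 replicate 1.

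Genes of the 2-cell-like state, a rare cell state that resembles the embryo after its first division, were higher in 7 of 12 and lower in none, beside 9.86% and 10.9% of all tested genes. They were expressed at a low level, and 4 of the 12 had a group with 3 counts or fewer in every library (median interaction 2.46, or 2.68 with such groups at the floor). Zscan4d rose from 0.834, 0.317 and 0.315 CPM to 3.34, 2.76 and 2.33 CPM in the WAPL line, while the 6 TIR1 libraries lay between 0.397 and 1.03 CPM. The Zscan4 genes are near-identical copies and the counting dropped ambiguous fragments, so each is uncertain.

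Cohesin and its regulators were lower in 7 of 21 genes and higher in none (beside 10.9% and 9.86% of all tested genes), with a median interaction of -0.19. Among them were Wapl itself, the ring subunits Smc3 (-0.43, edgeR adjusted p = 0.006) and Rad21 (-0.33, edgeR adjusted p = 0.004), the WAPL partner Pds5a (-0.49, edgeR adjusted p = 0.01), and Hdac8, the enzyme that deacetylates SMC3 (-0.74, edgeR adjusted p = 0.005). All of these were modest, at under 1 on the log2 scale. With the replicate block within each degron line 11 were lower, beside 3618 of all 19868 tested genes.

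**Figure D3:**
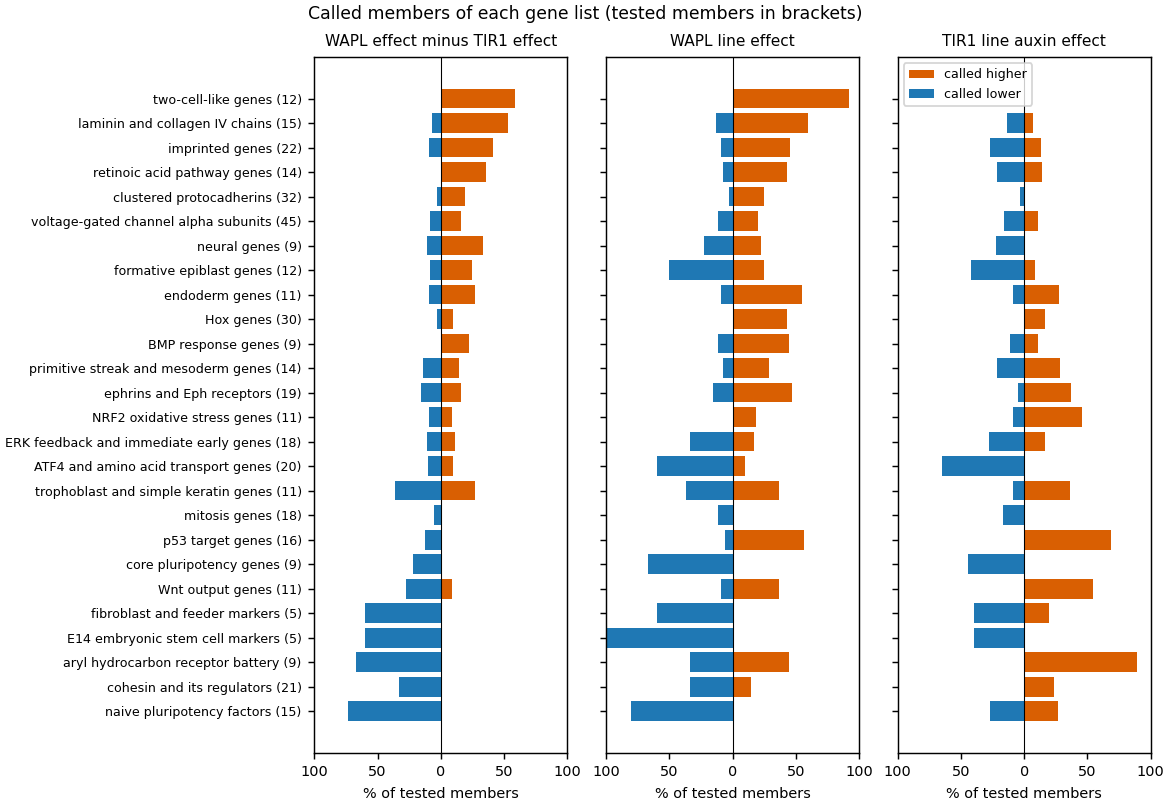
Share of tested members of 26 gene lists called higher (right) and lower (left) in the interaction, in the WAPL line and in the TIR1 line. Naive pluripotency factors and the aryl hydrocarbon receptor battery lie lowest in the interaction, with 11 of 15 and 6 of 9 lower, while ATF4 and p53 genes have long bars in both lines and short ones in the interaction.

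In 508 genes the lines moved in opposite directions, so that neither line alone shows the full distance. Scn3a (chr2:65457118-65567627, minus strand), a voltage-gated sodium channel of neurons, had the largest difference. It fell from 6.02, 6.52 and 7.40 CPM to 0.345, 0.352 and 0.454 CPM in the WAPL line and rose from 7.61, 8.06 and 9.25 CPM to 15.7, 13.7 and 15.5 CPM in TIR1 (interaction -4.94, SE 0.32, edgeR adjusted p = 1.9e-12). The short-chain fatty acid receptor Ffar2 (chr7:30818348-30823775, minus strand) went from 4.60, 2.72 and 3.94 CPM to 0.345, 0.381 and 0.423 CPM in the WAPL line and from 3.89, 4.14 and 4.50 CPM to 8.12, 9.20 and 8.43 CPM in TIR1 (interaction -4.31, SE 0.39, edgeR adjusted p = 2.0e-09). Lrrc15, a leucine-rich membrane protein, had an interaction of -4.27 (SE 0.31, edgeR adjusted p = 2.2e-11). In all 3 genes the 4 groups ran in 1 order, with treated WAPL libraries lowest, both untreated groups between, and treated TIR1 libraries highest. The sorting required a called change of opposite sign in each line, so most of this order follows from the choice of genes.

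The reverse order held for Atp1a4 (chr1:172223513-172258414, minus strand), a sodium pump subunit of sperm. It stood at 2.25, 1.23 and 2.60 CPM in untreated and 13.3, 6.60 and 7.71 CPM in treated WAPL cells, against 2.17, 1.28 and 1.56 CPM and, on auxin, 0.365, 0.271 and 0.555 CPM in TIR1 (interaction 4.26, SE 0.51, edgeR adjusted p = 4.0e-07). Nsg2, a vesicle protein of neurons, had an interaction of 4.07 (SE 0.34, edgeR adjusted p = 4.5e-10). Crocc2, a ciliary rootlet gene, had one of 3.97 (SE 0.45, edgeR adjusted p = 1.3e-07), in which the fall in TIR1 (-2.54) was larger than the rise in WAPL cells (1.44). In 213 of the 508 genes (41.9%) the TIR1 effect was the larger of the 2 in size. The interaction of such a gene rests as much on the control line as on the degron line, and the TIR1 effect cannot be told apart from library number.

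Treated WAPL cells were also set against treated TIR1 cells, which share auxin but differ in line. The treated WAPL libraries were numbered 30 to 42 and the treated TIR1 libraries 43 to 45, so line and library number cannot be told apart here either. In that comparison 7879 genes passed (39.7%), with 3948 higher (19.9%) and 3931 lower (19.8%). Of the genes specific to the WAPL line, 1072 of 1179 (90.9%) were called higher and 1016 of 1107 (91.8%) lower in it. Of the 508 opposite genes 492 (96.9%) were called with the sign of the interaction. The comparison shares its libraries with the interaction, so these shares describe the 2 treated groups and add no replicate. Scn3a differed by -5.26 and Tfap2c by -2.68 between treated lines, while their untreated lines differed by -0.32 and 0.11 with no call (edgeR adjusted p = 0.25 and 0.36).

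Genes that moved in both lines and further with the WAPL degron were few. Slc44a5, a choline transporter-like protein, rose from 4.76, 3.17 and 3.19 CPM to 31.7, 35.8 and 31.3 CPM in the WAPL line and from 1.29, 1.45 and 1.06 CPM to 2.07, 2.10 and 2.22 CPM in TIR1 (interaction 2.38, SE 0.26, edgeR adjusted p = 8.9e-08). Dkk1, a secreted Wnt inhibitor, rose from 2.93, 2.15 and 1.30 CPM to 26.99, 14.5 and 20.4 CPM against 2.35, 2.82 and 2.87 CPM to 6.57, 6.35 and 8.54 CPM (interaction 1.83, SE 0.42, edgeR adjusted p = 0.0020). Rab32, a small GTPase of organelle traffic, was higher by 1.70. Among genes that fell further, the kinase Sgk2 had an interaction of -1.995, the IGF-binding protein Igfbp7 one of -1.91 and the Wnt antagonist Sfrp4 one of -1.76. Igfbp7 overlaps Polr2b on the opposite strand.

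Among targets of the aryl hydrocarbon receptor, Cyp1a1 and Ahrr rose in both lines and less in the WAPL line. The receptor binds DNA with ARNT at the core GCGTG and induces Cyp1a1 and Cyp1b1, oxidases of foreign compounds, together with its own repressors Ahrr and Tiparp. Of 9 genes of this battery, 8 rose on auxin in TIR1 (beside 10.4% of all tested genes), 4 rose and 3 fell in the WAPL line (beside 17% and 15.8%), and 6 were lower in the interaction with none higher (beside 10.9% lower; median -1.65, or -1.26 with Cyp1b1 at the floor of 3 counts). By their sorting 2 of the 9 were smaller in the WAPL line, 2 opposite, 2 shared with auxin, 1 specific, 1 TIR1-alone and 1 unassigned. The 250 bases upstream of the RefSeq start of 5 of them, the CYP1 oxidases and the repressors, are shown (GRCm38.p6: Cyp1a1 chr9:57697363-57697612, plus strand, Cyp1a2 chr9:57683656-57683905, minus strand, Cyp1b1 chr17:79715062-79715311, minus strand, Ahrr chr13:74292332-74292581, minus strand, Tiparp chr3:65528197-65528446, plus strand). These 5 all rose in TIR1, but so did 8 of the 9, so the rise does not set them apart. The other 4 windows are not shown. Each is printed 5′ to 3′ on the strand of the gene, with GCGTG or its reverse complement CACGC in capitals.
Cyp1a1: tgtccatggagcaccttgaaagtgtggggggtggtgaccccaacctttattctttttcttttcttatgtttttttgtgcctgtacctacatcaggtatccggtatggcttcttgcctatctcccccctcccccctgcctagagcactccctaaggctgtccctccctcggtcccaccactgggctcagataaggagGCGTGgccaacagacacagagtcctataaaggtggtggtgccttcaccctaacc
Cyp1a2: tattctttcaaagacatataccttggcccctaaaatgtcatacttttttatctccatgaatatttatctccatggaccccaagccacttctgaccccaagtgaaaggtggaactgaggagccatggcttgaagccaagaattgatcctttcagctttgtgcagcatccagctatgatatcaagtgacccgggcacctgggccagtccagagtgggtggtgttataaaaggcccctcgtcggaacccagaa
Cyp1b1: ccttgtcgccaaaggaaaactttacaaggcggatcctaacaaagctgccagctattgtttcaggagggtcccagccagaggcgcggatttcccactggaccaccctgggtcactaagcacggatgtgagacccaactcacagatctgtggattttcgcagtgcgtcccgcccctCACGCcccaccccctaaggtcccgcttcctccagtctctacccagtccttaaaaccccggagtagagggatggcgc
Ahrr: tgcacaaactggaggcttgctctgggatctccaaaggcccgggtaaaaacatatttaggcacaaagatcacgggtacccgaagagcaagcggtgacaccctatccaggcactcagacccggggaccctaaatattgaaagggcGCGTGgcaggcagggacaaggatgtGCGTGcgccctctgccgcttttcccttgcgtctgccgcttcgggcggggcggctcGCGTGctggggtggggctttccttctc
Tiparp: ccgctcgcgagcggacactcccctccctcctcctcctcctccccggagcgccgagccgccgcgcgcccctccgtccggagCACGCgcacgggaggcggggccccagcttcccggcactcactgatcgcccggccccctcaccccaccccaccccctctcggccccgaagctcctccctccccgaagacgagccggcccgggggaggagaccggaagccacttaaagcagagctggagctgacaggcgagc

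Cyp1a1 has 1 match, 54 bases upstream of the start, Cyp1b1 has 1 at 76 bases, Tiparp has 1 at 170 bases, and Ahrr has 3 at 107, 82 and 27 bases. The window of Cyp1a2 has none. The 5 letters occur on either strand in 41.6% of 16156 such windows of tested genes, in 41.1% of windows of genes shared with auxin and higher, and in 41.9% of those shared and lower. The share was 49.5% (231 of 467) for genes that changed in TIR1 alone and were higher after auxin, and 39.6% and 45.5% for genes specific to the WAPL line that were higher and lower. Some genes have several windows, and these differences were not tested.

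Cyp1a1 rose from 0.478, 0.440 and 0.390 CPM to 74.9, 59.7 and 65.1 CPM in TIR1 and from 1.08, 0.564 and 1.18 CPM to 21.1, 21.4 and 22.7 CPM in the WAPL line (interaction -2.72, SE 0.33, edgeR adjusted p = 4.9e-07). Both rises far exceeded the spread of the libraries, and the treated groups did not overlap. Ahrr rose from 0.110, 0.088 and 0.284 CPM to 6.63, 6.02 and 7.80 CPM in TIR1 and from 0.309, 0.494 and 0.394 CPM to 1.34, 1.88 and 2.24 CPM in the WAPL line (interaction -3.13, SE 0.58, edgeR adjusted p = 0.00020). Cyp1b1 went from at most 0.110 CPM to 9.58, 10.3 and 12.4 CPM in TIR1 and from at most 0.141 CPM to 5.21, 5.57 and 4.75 CPM in the WAPL line. Its untreated TIR1 libraries held 3 counts or fewer, so no fold is given, and the interaction did not pass (edgeR adjusted p = 0.094).

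Tiparp and the receptor gene Ahr rose in TIR1 and fell in WAPL cells. Tiparp went from 36.3, 35.8 and 38.9 CPM to 61.6, 60.3 and 56.5 CPM in TIR1 and from 33.9, 41.5 and 29.8 CPM to 19.6, 31.1 and 19.6 CPM in the WAPL line, where the groups overlapped (interaction -1.26, SE 0.23, edgeR adjusted p = 0.00015). Ahr went from 14.4, 13.1 and 13.01 CPM to 18.2, 17.9 and 18.5 CPM in TIR1 and from 14.5, 12.8 and 12.9 CPM to 6.98, 7.95 and 8.01 CPM in the WAPL line (interaction -1.23, SE 0.14, edgeR adjusted p = 1.9e-07). Cyp1a2 rose in TIR1 alone, and Aldh3a1 fell in the WAPL line alone. Treated Cyp1a1 levels were also below those of TIR1 (66.6 ± 7.69 CPM, SD, n = 3) in the other 3 degron lines, at 25.1 ± 1.51 CPM in WAPL-NIPBL, 6.87 ± 0.771 CPM in PDS5AB and 15.2 ± 3.79 CPM in PDS5AB-NIPBL cells. A lower level than in TIR1 is thus not particular to the WAPL line, and the other 3 differences from TIR1 were not tested.

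**Figure D4:**
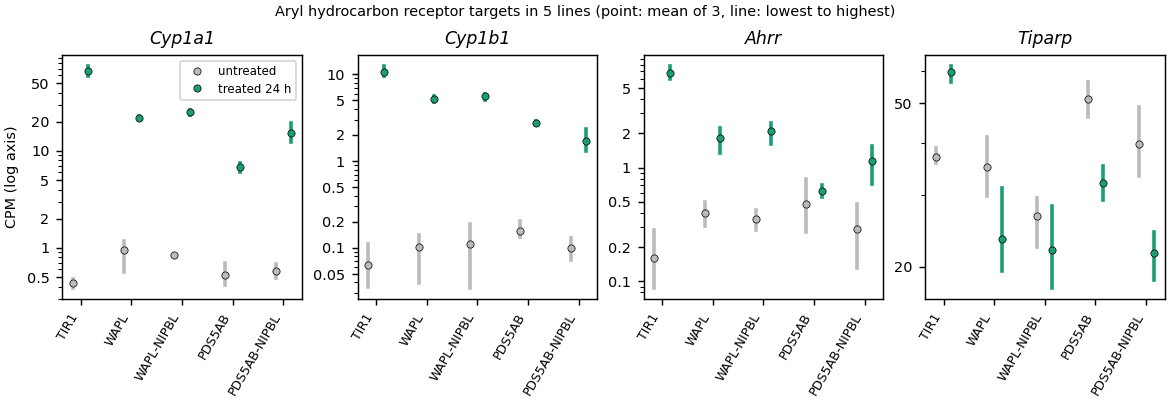
CPM on a log axis for 4 aryl hydrocarbon receptor targets in untreated and treated cells of 5 lines; each point is the mean of 3 libraries and each line runs from the lowest to the highest. Treated TIR1 cells are highest for all 4 genes, and Tiparp rises in TIR1 and is lower after treatment in the WAPL line.

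Besides Cyp1a1 and Ahrr, the receptor of the growth factor G-CSF, Csf3r, rose less in the WAPL line (interaction -1.46, SE 0.31, edgeR adjusted p = 0.00077). Genes that fell less were Adam23, a neural adhesion protein (1.02, SE 0.30, edgeR adjusted p = 0.014), and Myrf, a myelin regulatory factor (0.90, SE 0.23, edgeR adjusted p = 0.0047). Itga9 (1.25, SE 0.39, edgeR adjusted p = 0.019) did not pass without untreated WAPL replicate 2 (0.0584), untreated TIR1 replicate 1 (0.0607) or treated TIR1 replicate 3 (0.0692).

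The 1092 genes shared with auxin include several that could be read as WAPL targets from the WAPL line alone. Lef1 (chr3:131110471-131224356, plus strand), a nuclear effector of Wnt signalling, rose from 7.14, 6.77 and 5.47 CPM to 29.7, 29.8 and 26.3 CPM in the WAPL line and from 1.69, 1.45 and 1.28 CPM to 5.78, 6.08 and 7.03 CPM in TIR1. Its interaction was 0.05 (95% interval -0.62 to 0.71, edgeR adjusted p = 0.95), although the 2 lines started from different levels. T (brachyury), the mesoderm factor, rose by 1.48 in the WAPL line and 2.02 in TIR1 (interaction -0.54, 95% interval -1.14 to 0.06). The sialyltransferase St8sia2, the Rab effector Exph5 and the zinc finger gene Zfp703 rose by 2.32, 2.13 and 1.66 in the WAPL line and by 2.80, 2.60 and 1.97 in TIR1.

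Utf1 (chr7:139943789-139945112, plus strand), a chromatin factor of pluripotent cells, fell from 77.3, 62.6 and 74.9 CPM to 18.5, 14.4 and 18.1 CPM in the WAPL line and from 89.0, 82.9 and 70.5 CPM to 16.99, 26.9 and 21.9 CPM in TIR1. The treated groups overlapped between lines, and the interaction was -0.20 (95% interval -0.79 to 0.39, edgeR adjusted p = 0.68). The ERK-regulated genes Spry4 and Etv4 fell by 3.41 and 1.74 on the log2 scale in the WAPL line and by 2.61 and 1.38 in TIR1. Etv4 had an interaction of -0.35 (edgeR adjusted p = 0.50), and that of Spry4 of -0.80 did not pass (0.39) except with the replicate block within each degron line (0.0211). Eras, a Ras protein of embryonic stem cells that overlaps Pcsk1n, fell by 1.68 and 1.88 in the 2 lines. Dab1, an adaptor of reelin signalling, and Soga3 fell in both lines, with interactions of 0.69 (edgeR adjusted p = 0.082) and 0.84 (0.25). Dab1 passed without treated WAPL replicate 1 (0.88, 0.0243), untreated TIR1 replicate 2 (0.82, 0.041) or treated TIR1 replicate 1 (0.86, 0.0412).

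Members of 3 lists moved with auxin in both lines. Beside their counts stand 17% of all tested genes that rose and 15.8% that fell in the WAPL line, 10.4% and 9.59% in TIR1, and 9.86% higher and 10.9% lower in the interaction, so that the interaction counts of the p53 and ATF4 lists lie near those of all genes. The replicate block within each degron line called 3034 of 19868 tested genes higher and 3618 lower, and the block in every line 2285 and 2760. With no filter on low counts 1831 of 40589 were higher and 2136 lower. Of 16 p53 target genes 9 rose in the WAPL line and 11 in TIR1, with 2 lower in the interaction, one of which was the cell cycle inhibitor Cdkn1a (-0.49, SE 0.12, edgeR adjusted p = 0.0025). The count of 2 was 1 without untreated WAPL replicate 1 or treated TIR1 replicate 2. Of 20 genes of the ATF4 amino acid response 12 fell in the WAPL line and 13 in TIR1, with 2 higher and 2 lower in the interaction (5 and 5 with the replicate block within each degron line, 4 lower with the block in every line and 4 higher with no filter on low counts). Of 11 Wnt output genes 4 rose in the WAPL line and 6 in TIR1, with 1 higher and 3 lower. The 3 lower became 6 with the block within each degron line or no filter on low counts, 5 with the block in every line, and 1 without untreated or treated WAPL replicate 3, untreated TIR1 replicate 2 or treated TIR1 replicate 3. Median interactions were -0.04 for the p53, -0.02 for the ATF4 and -0.33 for the Wnt list, beside 0.02 over all tested genes.

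The 874 genes of the interaction that changed in TIR1 and not in the WAPL line are the ones most exposed to the control. Cdx2 (chr5:147300805-147307270, minus strand), the trophectoderm and hindgut homeobox factor, rose from 1.40, 1.72 and 1.24 CPM to 10.3, 8.73 and 10.7 CPM in TIR1 and stood at 4.66, 3.67 and 2.76 CPM before and 2.76, 2.88 and 3.33 CPM after auxin in the WAPL line (interaction -3.09, SE 0.32, edgeR adjusted p = 2.1e-08). Over all 30 libraries Cdx2 had no overlap between those numbered up to 21 and those from 25, as did 59 of the 874 (6.75%, beside 0.906% of all tested genes). The 2 TIR1 groups lie on either side of that divide and the sorting required them to differ, so this count describes the genes and tests nothing. Clic6, a chloride channel protein, rose from 2.39, 1.67 and 2.09 CPM to 8.09, 11.5 and 13.2 CPM in TIR1 and lay between 1.30 and 2.30 CPM in all 6 WAPL libraries. AC131675.2 had an interaction of -2.42. Between treated lines, 534 of the 874 (61.1%) were called with the sign of the interaction, beside 19.9% of all tested genes called higher and 19.8% lower. That comparison uses treated libraries that helped to select these genes, so this share too only describes them.

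The calls of the 3 named TIR1-alone genes with the largest positive interactions rest on 1 library, though part of each difference remained without it. CT010467.1, a ribosomal RNA gene, stood at 6442, 1108 and 773 CPM in untreated TIR1 cells, Mir6236 at 325, 71.1 and 51.5 CPM, and Lars2 at 1366, 387 and 266 CPM, with replicate 1 the highest each time. Their interactions were 2.52, 3.47 and 2.84. Without that library they were 0.96, 2.18 and 1.79 and none passed (edgeR adjusted p = 0.444, 0.109 and 0.0969). The CT010467.1 call also failed on leaving out any 1 of 7 other libraries, with an edgeR adjusted p of up to 0.114, without the PDS5AB line (0.065) and in DESeq2 (0.0737). CT010467.1 overlaps other annotated genes.

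The sorting was then read in the WAPL-NIPBL line, whose 6 libraries form no term of the interaction but entered the same fit, and so the shared estimate of spread. With the 4 groups of the interaction fitted alone, 3695 genes were called in it, and 26.1% of the specific genes were called with the same sign in the WAPL-NIPBL line. The share was 20.9% with the replicate block in every line and 16.9% with the block within each degron line. Both proteins are lost there and auxin is present, so neither WAPL nor auxin stands alone. On treatment 1702 genes (8.57%) changed, 1016 higher (5.11%) and 686 lower (3.45%). Of the 1179 genes specific to the WAPL line and higher, 310 (26.3%) were called higher and 1 lower, with a median log2 change of 0.35 against 0.01 over all tested genes. Of the 1107 lower, 235 (21.2%) were called lower and 10 higher, with a median of -0.15. Among named genes, Epn3, Dab2, Zfp467, Chst15 and Lamb3 rose there by 1.40 to 2.06, and Tfap2c, Scn3a, Prdm14 and Sox2 fell by 1.34, 1.92, 0.68 and 0.37. Msc, Cxcl14, Fst and Sstr2 did not pass, with changes of -0.37, -0.19, -0.39 and 0.04, nor did Lefty1 (0.42), Crabp2 (0.30) and Dppa3 (-0.02). Of the 15 naive factors 11 fell.

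Genes shared with auxin also moved in the WAPL-NIPBL line, 202 of 556 higher (36.3%) and 128 of 536 lower (23.9%). The 874 TIR1-alone genes were called there with the TIR1 sign in 30 of 517 that rose in TIR1 (5.80%, beside 5.11% of all tested genes) and in 18 of 357 that fell (5.04%, beside 3.45%). Opposite genes were called with the sign of the interaction in 34 of 201 higher (16.9%) and 66 of 307 lower (21.5%).

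**Figure D5:**
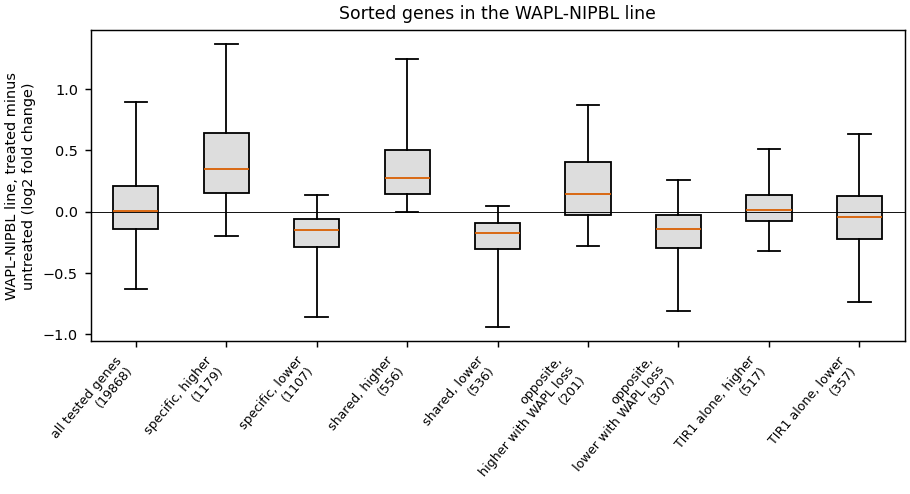
Log2 change on treatment in the WAPL-NIPBL line for genes sorted in the WAPL and TIR1 lines, with the number of genes under each box; boxes span the quartiles with the median, and whiskers run from the 5th to the 95th percentile. Medians of specific genes are 0.35 (higher) and -0.15 (lower), and those of the TIR1-alone genes lie near the 0.01 of all tested genes.

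In the PDS5AB line, where 9134 genes changed (46%, 25.8% higher and 20.2% lower), 882 of the 1179 specific genes that were higher (74.8%) were called higher and 669 of the 1107 that were lower (60.4%) were called lower. In the PDS5AB-NIPBL line (19.5% called, 11.4% higher and 8.06% lower) these were 535 (45.4%) and 424 (38.3%). Genes beyond the auxin effect in the WAPL line were thus often called in the other degron lines too. Shared genes had the same sign in PDS5AB cells in 80.4% of those higher and 81.2% of those lower, and 266 of the 1092 (24.4%) were called with 1 sign in all 4 degron lines and TIR1, 161 higher and 105 lower. By their sorting all 1092 had already passed with 1 sign in the WAPL line and TIR1. The share of all tested genes called in this way was not computed, so the 266 only describe the shared group.

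Last, position was examined, as cohesin acts on stretches of chromosome. For each tested protein-coding gene the nearest tested coding gene that does not overlap it was taken. Among 1647 coding genes called higher in the interaction, that neighbour was also called higher in 293 (17.8%), beside 10.2% for all 15225 coding genes, and called lower in 143 (8.68%, beside 13.2%). Among 2044 called lower, the neighbour was lower in 466 (22.8%) and higher in 135 (6.60%). Lefty1 and Lefty2 were both higher, at 3.63 and 1.22, though Lefty2 was not called in the WAPL line. Whether either is the nearest such gene of the other was not examined. Neighbours are not independent of each other, so these shares are given as a description. Genes specific to the WAPL line spanned a median of 24.3 kb and opposite genes 29.99 kb, beside 16.02 kb for all tested genes. Several other called groups were similar, at 23.1 kb for shared, 21.8 kb for TIR1-alone, 26.7 kb for larger and 31.6 kb for smaller genes, so a longer span was not particular to the WAPL line. It was not found in every group. Genes called in the interaction alone were at 18.5 kb, and unassigned genes at 20.7 kb (WAPL effect) and 13.3 kb (TIR1 effect). TIR1-alone genes that rose in TIR1 were at 33.8 kb and those that fell at 8.0 kb. Of all 19868 tested genes 15225 code for protein, against 2089 of the 2286 specific genes. Other groups held 1028 of 1092 (shared), 479 of 508 (opposite), 149 of 154 (larger), 28 of 31 (smaller) and 715 of 874 (TIR1-alone). A high coding share was thus not particular to the specific genes. The specific genes that rose had a median level of 3.96 CPM and those that fell 47.7 CPM, beside 7.58 CPM for all. TIR1-alone genes with a higher and a lower interaction were split likewise, at 5.02 and 47.5 CPM, as were genes of the WAPL line effect that could not be assigned (2.81 and 38.9 CPM) and those called in the interaction alone (2.95 and 50.03 CPM).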

How the data were processed

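Polyadenylated RNA of 5 mouse embryonic stem cell lines was measured in 30 libraries, 3 in each of 10 groups. The authors deposited raw counts of fragments per gene, made with featureCounts 2.0.1 in paired-end mode without a strand option and with ambiguous fragments dropped, on GENCODE vM23 gene models of GRCm38, per the file headers. The submitters' processing notes name cutadapt, STAR 2.7.7a and deepTools. Counts were tested as deposited with edgeR 4.0.16 in R 4.3.3 (quasi-likelihood F-test, TMM scaling, filterByExpr with a minimum count of 10, 1 mean for each of 10 groups, 20 residual degrees of freedom), with Benjamini-Hochberg adjustment over all 19868 genes passing the filter of the 55421 in the table, and a call at an adjusted p under 0.05. Fold changes are log2 values with standard errors from the F statistic, and CPM are scaled by TMM (factors of 0.953 to 1.06 in the 12 libraries of the interaction). The common biological coefficient of variation was 9.15%. The steps were tested on simulated data.

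The members and the gene lists were chosen with earlier results of these data known. Genes named had a symbol other than a Gm, Rik or pseudogene name and a mean of at least 50 counts over the 12 libraries. They were the 10 largest interactions in each direction among specific genes whose treated and untreated WAPL libraries do not overlap, 6 shared genes in each direction by the mean of both effects without overlap in either line, 3 in each direction for the opposite, larger, smaller and TIR1-alone groups, Wapl, and up to 3 called members of each of 26 lists. Another 39 genes were named after their values were seen. A few genes that the rule or the lists would name are not reported here. The labels do not say that replicates came from separate cultures, so p-values measure the spread between these libraries, which may be technical. Groups came from the titles. The labels give the molecule as genomic DNA, whereas their protocols describe RNA.

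Whether replicate numbers pair libraries was checked by correlating deviations from group means: same-numbered WAPL libraries gave r of 0.647, 0.548 and 0.470, and same-numbered TIR1 libraries 0.231, 0.001 and 0.026. The WAPL numbers pair libraries and the TIR1 numbers do not, by the rule that every pair exceed 0.1. The 250-base windows upstream of genes are from RefSeq (GRCm38.p6), matched by symbol, and were searched on both strands for GCGTG. Other settings tried were a fit of the 4 groups alone, a fit without the PDS5AB line, DESeq2 1.42.0, RLE size factors in edgeR, keeping every gene with a count, a 2-fold minimum, a replicate block, a block within each degron line (added after the data were seen), and leaving out each replicate. The kit in the labels is stranded and the counting used no strand, so antisense and overlapping genes share fragments.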

Additional observations from a re-analysis of the deposited data

Results flagged for a closer look

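The named genes below were flagged because the change on auxin differed between the 2 lines by the test of the interaction and ran in opposite directions, each passing on its own. Values are the WAPL effect minus the TIR1 effect on the log2 scale. Lower in the WAPL line were Scn3a (-4.94), Ffar2 (-4.31), Lrrc15 (-4.27), Tfap2c (-2.79), Gata2 (-2.55), Dppa3 (-2.28), Epha4 (-1.82), Gsc (-1.81), Kcnd3 (-1.78), Klf4 (-1.74), Tiparp (-1.26), Ahr (-1.23), Spry2 (-1.04) and Lama1 (-0.89). Higher were Atp1a4 (4.26), Nsg2 (4.07), Crocc2 (3.97), Lefty1 (3.63), Crabp2 (3.05), Dlk1 (3.04), Cdkn1c (2.44), Col4a1 (1.88), Col4a2 (1.54), Myc (1.52), Kcnh2 (1.11), Gnas (1.01) and Dnmt3a (1.00). In the WAPL-NIPBL line Scn3a, Ffar2, Lrrc15 and Tfap2c fell by 1.92, 1.38, 1.76 and 1.34 on the log2 scale, and Cdkn1c, Atp1a4 and Myc rose by 1.35, 1.29 and 0.76. Lefty1, Gsc, Crabp2, Nsg2 and Crocc2 did not pass there, with changes of 0.42, 0.24, 0.30, 0.14 and -0.20. The part of library number in the TIR1 effect was not tested.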

How the results depend on the processing

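The interaction had 4122 genes, and no call changed sign under any of the 20 alternatives. Against a 2-fold minimum 255 genes were left, 148 higher and 107 lower, with 148 specific, 0 larger, 0 opposite, 2 smaller, 16 TIR1-alone and 10 shared genes, and 54.7% of the specific genes were called with the same sign in the WAPL-NIPBL line instead of 23.8%. A minimum fold removes genes by construction. With a replicate block in every line the interaction kept its count within 1.5 times, and the larger and smaller groups held 251 and 54 genes. With the replicate block within each degron line the interaction had 6652 genes, 3034 higher and 3618 lower, with 489 larger, 1162 opposite, 164 smaller, 1589 TIR1-alone and 1911 shared genes, and 4118 of the 4122 calls were kept. Of the specific genes 16.9% were called alike in the WAPL-NIPBL line with this block, and 20.9% with the block in every line. Leaving out each replicate in turn gave 3486 to 4319 genes (1647 to 1969 higher, 1834 to 2350 lower), 1893 to 2228 specific, 83 to 171 larger, 367 to 560 opposite, 17 to 34 smaller, 649 to 1005 TIR1-alone and 772 to 1309 shared genes, and 23.8% to 27.8% of specific genes called alike in the WAPL-NIPBL line. The larger group held 83 to 95 genes instead of 154 on leaving out any of the 6 TIR1 libraries, and the smaller group 20 instead of 31 without untreated WAPL replicate 1 and 17 without treated WAPL replicate 3. Higher genes made up 58.0% of calls with the 2-fold minimum and 45.1% to 50.1% under the other 19 alternatives. Of 150 named genes 130 were called in the interaction, of which 46 passed in all 20 alternatives. Low-count genes, such as the 2-cell-like ones, are limited by depth: a group with 3 counts or fewer gives no fold.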

Other observations

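Gene lists that belong to no comparison above were counted in the interaction in the same way, beside 9.86% of all tested genes called higher and 10.9% called lower. The replicate block within each degron line called 3034 of 19868 tested genes higher and 3618 lower, and the block in every line 2285 and 2760. With no filter on low counts 1831 of 40589 were higher and 2136 lower. Counts under these settings stand beside those totals. Of 45 alpha subunits of voltage-gated channels, the pores of excitable cells, 7 were higher and 4 lower, and 6 of these moved in opposite directions in the 2 lines, among them Scn3a (-4.94), Kcnd3 (-1.78) and Kcnh2 (1.11). Of 32 clustered protocadherins, neuronal adhesion proteins whose promoters are chosen with the help of CTCF and cohesin, 6 were higher and 1 lower, and 10 had a group with 3 counts or fewer in every library (median interaction 0.85, or 0.44 with such groups at the floor). Of 30 Hox genes, which pattern the body axis, 13 rose in the WAPL line and 5 in TIR1 (beside 17% and 10.4% of all tested genes), while 3 were higher and 1 lower in the interaction. The 3 became 6 with the replicate block within each degron line and 1 without untreated or treated TIR1 replicate 2, and the 1 lower became 0 without untreated WAPL replicate 3 and 2 without untreated TIR1 replicate 2. Of 19 ephrins and Eph receptors, a contact signalling system, 9 rose in the WAPL line and 7 in TIR1 (beside 17% and 10.4%), with 3 higher and 3 lower in the interaction, and 5 were higher with that block or without untreated WAPL replicate 3. Of 18 mitosis genes 1 was lower and none higher, and the counts were 4 lower and 1 higher with that block, and the lower count was 2 with the block in every line, and 0 with the 4 groups alone or without untreated WAPL replicate 2 or 3, untreated TIR1 replicate 1, or treated TIR1 replicate 2 or 3. Counts of the formative epiblast (3 of 12 higher, 1 lower), neural (3 of 9 higher, 1 lower) and endoderm lists (3 of 11 higher, 1 lower) rest on few genes. The formative count of 1 lower was 3 with no filter on low counts, with the 4 groups alone and with either block, and 2 without the PDS5AB line, treated WAPL replicate 1 or treated TIR1 replicate 1, and the endoderm count of 1 lower was 2 with the block within each degron line.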
